A study of Drosophila melanogaster with 3 samples.

Results

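Bdp1 peaks at single protein-coding promoters were examined in Drosophila melanogaster embryos. A peak of the optimal list was counted when it overlapped the window of 100 bp on either side of the 5' end of a protein-coding transcript, and when none of the 5' ends it reached had a protein-coding 5' end of another gene on the opposite strand within 1000 bp upstream. Peaks at the 5' ends of tRNA, U6, U6atac, 7SK and RNase MRP genes were left out. The optimal list itself holds the 3206 highest signals of the pooled replicates. Within that list the rule used positions only and no signal. It chose 677 of 3206 optimal peaks, or 21.1% (95% exact interval 19.7 to 22.6%). The other peaks lay at divergent protein-coding promoters (758), at the Pol III genes named above (236) or elsewhere (1535). The 677 peaks reached 667 genes, which was 6.89% of the 9677 protein-coding genes with at least 1 single 5' end.

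All samples came from a transgenic line that stably expressed CG9305, the gene of Bdp1, with GFP at the C-terminus, and chromatin was precipitated with an antibody to GFP. There was 1 group of 3 biological replicates, each made from whole embryos of both sexes collected between 0 and 24 h. No untagged or input samples were analysed here. The embryos mix all stages and cell types of that day, so a peak in few cells and a weak peak in many cells cannot be told apart. What drives the fusion was not stated in the labels. The lists hold no read totals, so the depth is unknown.

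TFIIIB, which contains Bdp1 and Brf1, assembles upstream of tRNA genes and brings RNA polymerase III (Pol III) to them. Protein-coding genes are transcribed by RNA polymerase II (Pol II), whose promoters in flies carry elements such as the TATA box, the initiator, the DNA replication-related element (DRE) and Motif 1. Compact promoters of ribosomal protein and other housekeeping genes often lack a TATA box, and many lie back to back with another gene. The promoters described here are those without such a neighbour.

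The promoter stretches under 5 of the 12 strongest single-promoter peaks show what lies between the summit, the highest point of the peak, and the annotated 5' end. Each runs 5' to 3' on the strand of the gene, from 60 bases before the summit to the base before the 5' end, on dm6, with the summit at base 61. The stretch of CG14100 is chr3L:19590525-19590678 on the minus strand, that of CG31145 chr3R:23669660-23669897 on the minus strand, and that of CG18549 chr3R:12449112-12449295 on the plus strand. The stretch of CG13921 is chr3L:1746722-1746906 on the plus strand and that of brwl chr2L:9568682-9568889 on the plus strand. Capitals mark, on either strand, the TATA box with the letters TATAAA and the initiator with the core letters TCAGT.
CG14100: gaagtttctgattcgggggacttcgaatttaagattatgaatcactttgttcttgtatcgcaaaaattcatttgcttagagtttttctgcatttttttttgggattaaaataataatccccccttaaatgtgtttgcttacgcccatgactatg
CG31145: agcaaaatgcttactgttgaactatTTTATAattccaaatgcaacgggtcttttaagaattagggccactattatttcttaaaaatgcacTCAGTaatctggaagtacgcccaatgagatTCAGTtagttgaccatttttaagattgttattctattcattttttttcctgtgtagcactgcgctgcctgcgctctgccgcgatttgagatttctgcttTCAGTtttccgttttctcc
CG18549: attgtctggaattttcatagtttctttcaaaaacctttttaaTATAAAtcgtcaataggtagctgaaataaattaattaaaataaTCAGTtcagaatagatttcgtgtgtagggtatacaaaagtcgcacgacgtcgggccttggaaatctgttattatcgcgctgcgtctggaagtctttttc
CG13921: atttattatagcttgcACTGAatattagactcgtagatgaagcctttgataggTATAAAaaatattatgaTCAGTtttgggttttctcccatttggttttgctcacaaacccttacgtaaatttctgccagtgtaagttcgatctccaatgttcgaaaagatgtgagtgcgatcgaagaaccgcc
brwl: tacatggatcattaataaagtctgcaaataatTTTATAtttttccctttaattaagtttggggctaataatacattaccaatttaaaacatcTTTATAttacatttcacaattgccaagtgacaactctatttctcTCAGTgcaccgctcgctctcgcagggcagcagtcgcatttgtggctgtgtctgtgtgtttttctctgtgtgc
Of the 9 motifs searched, the stretch of CG14100 held none. Those of CG31145, CG18549, CG13921 and brwl held both TATAAA and TCAGT.

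Stretches of 4 of the 5 strongest ribosomal protein genes are given for the distance between summit and 5' end, which was short at RpL24 and RpS10b. That of RpL17 is chrX:6744239-6744390 on the minus strand, that of RpL23A chr3L:1668655-1668822 on the minus strand, that of RpL24 chr2L:13395132-13395196 on the minus strand, and that of RpS10b chrX:19597945-19598030 on the plus strand. Capitals mark, on either strand, the initiator, the DRE core with the letters ATCGAT, and the leading words of 7 bases. These words overlap each other, were picked from these same peaks and are spelled out with the motifs.
RpL17: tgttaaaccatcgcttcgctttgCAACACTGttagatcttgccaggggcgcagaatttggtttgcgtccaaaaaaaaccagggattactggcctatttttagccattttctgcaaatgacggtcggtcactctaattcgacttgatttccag
RpL23A: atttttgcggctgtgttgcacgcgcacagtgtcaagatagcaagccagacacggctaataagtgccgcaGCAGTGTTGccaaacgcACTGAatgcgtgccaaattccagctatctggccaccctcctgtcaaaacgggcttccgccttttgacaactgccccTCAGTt
RpL24: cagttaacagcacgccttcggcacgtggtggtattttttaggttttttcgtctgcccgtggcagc
RpS10b: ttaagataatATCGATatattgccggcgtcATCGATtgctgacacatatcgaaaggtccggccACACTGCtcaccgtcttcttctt
The summit lay 92 bp upstream of the 5' end at RpL17, 108 bp at RpL23A, 5 bp at RpL24 and 26 bp at RpS10b.

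The median single-promoter peak was weaker than the median peak at Pol III genes in each replicate. Signal is given as times the median: each replicate's value at a peak over that replicate's median for the optimal list. The median single-promoter peak had 0.907, 0.939 and 0.988 times the median in replicates 1, 2 and 3. The median peak at Pol III genes had 8.14, 7.92 and 6.51 times the median, and the strongest single-promoter peak, described next, was above these medians. In the pooled ranking of the authors' signal, the first single-promoter peak stood at rank 87. Of the 100 strongest optimal peaks, 1 was at a single promoter and 88 were at Pol III genes. Among the first 500 the numbers were 67 and 196. The median rank of the single-promoter peaks was 1775 of 3206.

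The 12 single-promoter peaks with the highest mean rank over the replicates were found in all 3, which follows from how they were picked. CG14100 stood first with 9.54, 11.99 and 11.51 times the median (mean 11.0 ± 1.30, SD, n = 3), at chr3L:19590445-19590792. The next was px, a wing vein patterning gene, with 7.27, 11.04 and 7.66 times the median at chr2R:22514115-22514472. CG1888 had 6.31, 9.07 and 6.15 times the median at chr2R:9547048-9547347. CG14100 was above px and px above CG1888 in each replicate, although the ranges over the replicates overlapped between neighbours.

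CG31145 had 5.51, 6.35 and 5.21 times the median at chr3R:23669673-23670015, and CG18549 had 6.26, 4.77 and 5.05 at chr3R:12449033-12449323. The peak at gish, which encodes a casein kinase, had 4.81, 5.62 and 4.57 times the median and lay in an intron of the gene, upstream of an inner 5' end. GstE13, a glutathione transferase gene, had 4.41, 5.40 and 4.87 times the median at chr2R:9122043-9122352, with its summit 96 bp downstream of the 5' end. It was the only one of the 12 with a summit downstream. The peak at eIF6, whose product keeps the large ribosomal subunit from joining too early, had 3.45, 4.89 and 4.83 times the median at chr2R:23850278-23850557. The remaining 4 were Fkbp14, an endoplasmic reticulum prolyl isomerase gene (5.78, 3.27 and 3.58), CG13921 (4.15, 3.99 and 3.97), brwl (4.46, 4.01 and 3.61) and Atf3, a bZIP transcription factor gene (3.51, 4.33 and 4.25). Values of these 4 overlapped, and their order does not hold up against the spread between replicates.

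**Figure D1:**
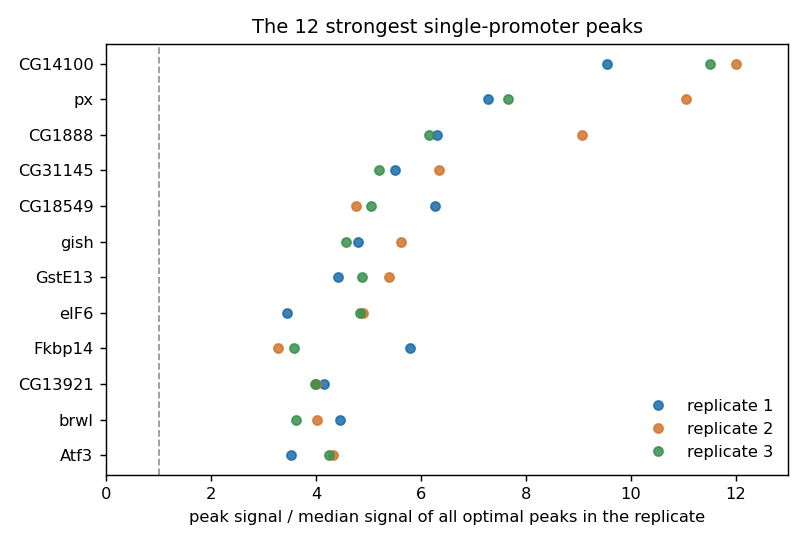
Signal of the 12 strongest single-promoter peaks (horizontal axis, times the median of all optimal peaks of the replicate, dashed line at 1), with 1 point per replicate. CG14100 lies between 9.54 and 11.99 and is highest in each replicate, and the ranges of neighbouring genes overlap from the top to the bottom.

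The middle 3 of the pooled ranking were at CG44249 and Snp (1 peak), at Ndf and at cindr, with means of 0.826 ± 0.265, 0.856 ± 0.435 and 0.883 ± 0.204 times the median (SD, n = 3). Each of them was above the median in 1 replicate, at 1.08, 1.35 and 1.10. The lowest 3 were at tyn, CG32264 and Trf4-1, with means of 0.602 ± 0.196, 0.651 ± 0.169 and 0.477 ± 0.224. The ranges of the middle and the lowest peaks overlapped.

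Single promoters did not differ from divergent promoters in signal beyond the spread between replicates. The median peak at divergent promoters had 1.03, 0.894 and 1.10 times the median in replicates 1, 2 and 3. The difference of the median log2 signal, single minus divergent, was -0.19, 0.07 and -0.15 (mean -0.09 ± 0.14, SD, n = 3; exact sign-flip permutation test over replicates, two-sided, p = 0.5). Against all other peaks outside Pol III genes the difference was -0.09, -0.04 and 0.06 (mean -0.03 ± 0.07; p = 0.75 by the same exact test). The smallest p that 3 replicates allow is 0.25, so no result here could pass 0.05.

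Single-promoter peaks were not alike in how far they varied between replicates. A value was had in all 3 replicates for 630 of the 677 peaks, and the median coefficient of variation over the replicates was 29.5%. For 75 of those 630 (11.9%) the highest replicate was above 3 times the lowest, and the highest was replicate 1, 2 and 3 in 23, 29 and 23 of them. A replicate's peak that overlaps the optimal peak but misses its summit is not counted in these values. The part of that measure in the variation was not tested. Spearman correlations of the signal across the 630 peaks were 0.47 for replicates 1 and 2, 0.54 for 1 and 3, and 0.59 for 2 and 3, given as a description across peaks of libraries made alike.

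The peaks were checked against the 3206 strongest peaks of each replicate, as many as the optimal list holds. Of the 677 single-promoter peaks, 492, 520 and 565 overlapped a strongest peak of replicates 1, 2 and 3. All 3 replicates held 340 of them (50.2%), 224 were in 2, 109 in 1 and 4 in none. The share in all 3 was 56.5% for all optimal peaks and 56.3% for divergent promoters. The rule applied to each replicate's own strongest peaks gave 636, 674 and 743 single-promoter peaks (mean 684.3 ± 54.2, SD, n = 3).

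Support depended on the pooled signal. The single-promoter peaks were cut by pooled signal into 4 groups of equal size, called groups 1 to 4 from the strongest. In group 1, at ranks 87 to 962, 98.8% were held by all 3 replicates. In groups 2 and 3 the shares were 71.6% and 26.0%, and in group 4, at ranks 2484 to 3205, 4.14%. The pooled signal is made from the same replicates, so the order of these shares is a description.

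Summits lay upstream of the 5' end. The median position was -116, -90 and -104 bp from the nearest 5' end reached in replicates 1, 2 and 3, where minus means upstream (mean -103 ± 13 bp, SD, n = 3; upstream in 3 of 3 replicates; exact sign-flip permutation test, p = 0.25, the smallest possible). Of the peaks with a summit in replicates 1, 2 and 3, 85%, 81.3% and 86.6% lay upstream. In the optimal list the lower and upper quartile of the summits were at -171 and -34 bp.

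At divergent promoters the median summit was at -77.5, -49.5 and -66.5 bp. Single-promoter summits were farther upstream by 38.5, 40.5 and 37.5 bp, in 3 of 3 replicates (mean difference -38.8 ± 1.53 bp, exact sign-flip permutation test, p = 0.25). A divergent peak can have 5' ends on both sides, and the distance is taken to the nearer, which by construction can shorten it. With the rule narrowed to optimal summits no more than 100 bp from the 5' end, the difference was 1.67 bp, in the other direction.

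**Figure D2:**
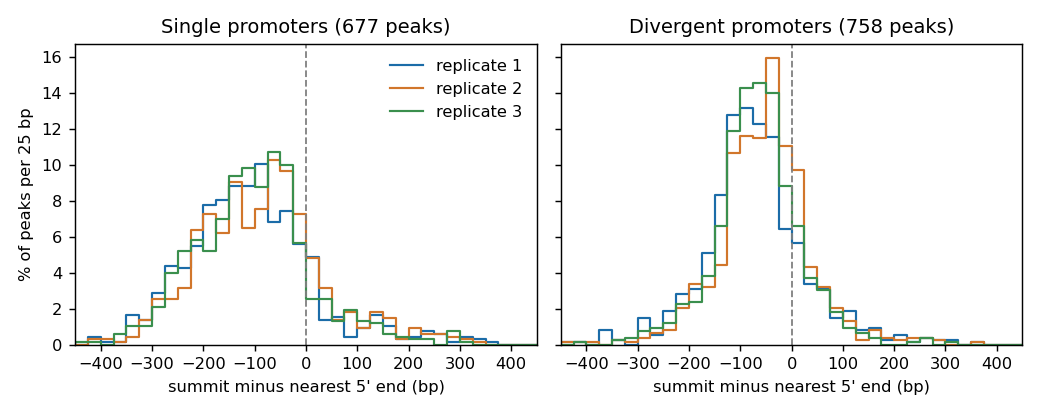
Position of the summit relative to the nearest 5' end reached, in bp with upstream negative, as the percentage of peaks per bin of 25 bp for each replicate (lines), at single promoters (left, 677 peaks) and divergent promoters (right, 758 peaks). Single-promoter summits have medians of -116, -90 and -104 bp and spread farther upstream than those at divergent promoters, with medians of -77.5, -49.5 and -66.5 bp.

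The strongest single-promoter peaks lay farthest upstream. Group 1 had median summits at -141.5, -132 and -137 bp (mean -137 ± 4.75, SD, n = 3), and group 4 at -91, -48 and -78 bp (mean -72.3 ± 22.1). Group 1 did not overlap any other group, whereas groups 2 (mean -97.7 ± 9.29), 3 (mean -99.2 ± 15.2) and 4 overlapped each other. No test was made between groups. Peak width moved with them: 45.9% of group 1 were narrower than the width of 396 bp that 597 of the 677 peaks share, against 0% of groups 3 and 4. The part of width in the position was not tested.

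**Figure D3:**
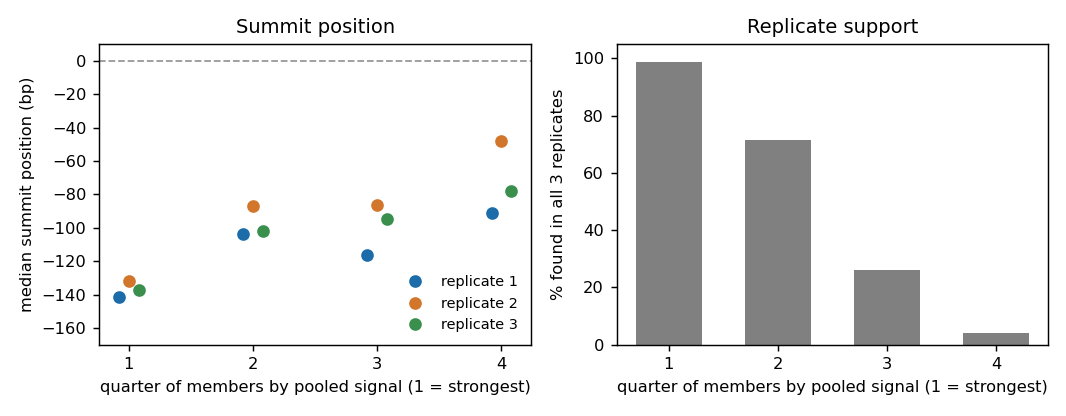
Left, median summit position in bp from the nearest 5' end for the 4 groups of single-promoter peaks by pooled signal (1 is the strongest), 1 point per replicate. Right, the percentage of each group held by the strongest peaks of all 3 replicates, which runs from 98.8% to 4.14%.

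Most summits lay outside the gene. Between protein-coding genes there were 361 summits (53.3%), in an intron of the gene reached 138, in an exon of it 108, and in another gene's intron or exon 58 and 12. A 5' end lay inside the peak in 512 cases (75.6%). The peaks reached 1 gene in 655 cases and 2 in 22. The 3 of the latter with the highest mean percentile rank over the replicates were at CG7694 and fray, a kinase gene (4.21, 2.85 and 2.84 times the median), at Cyp6u1 and Ufsp1 (3.38, 1.34 and 2.04), and at CG42359 and Nsun5, an RNA methyltransferase gene (1.64, 1.93 and 1.64). No 2 of the 677 shared an interval, and 4 overlapped the one before them.

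Of the 677 peaks, 4 had their summit within 1000 bp of the 5' end of a Pol III gene and 15 (2.22%) within 5000 bp. The same share over all single promoters was not computed, and the rule leaves out peaks at the 5' ends of Pol III genes. A 5' end of a non-coding gene on the opposite strand lay within 1000 bp upstream for 5.76% of the peaks, against 5.18% of all genes with a single 5' end. On the long arms and the X chromosome the share of genes reached lay between 6.66% on 2L and 7.07% on 3R, and on chromosome 4 it was 2 of 66 genes and on Y 0 of 23.

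Genes with more annotated 5' ends were reached more often. Of genes with 1, 2, 3 and 4 or more 5' ends, 4.24%, 10.3%, 15.8% and 22.0% had a single-promoter peak. More 5' ends give more windows, and the share counted per 5' end was 5.88% (790 of 13445). Genes reached were longer, with a median of 5652 bp against 2284 bp for all genes with a single 5' end. Of 282 genes reached whose 5' ends lie over 500 bp apart, 125 (44.3%) had a peak within 200 bp of the outermost 5' end and 157 at an inner one only. Moe, the moesin gene, and Ptpmeg2, a phosphatase gene, each had 3 single-promoter peaks, and 28 genes had 2.

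Among 20 gene lists, glycolysis, cytoplasmic ribosomal proteins and translation factors had the highest shares of genes with a single-promoter peak. Each share is of the list's genes with a single 5' end and stands beside 6.89% over all such genes. No test of a list was made, and 63 of the 667 genes reached were in any list. In 13 of the 20 lists the share was above that of all genes, though intervals of 10 of those 13 include it.

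Cytoplasmic ribosomal protein genes, whose products make up both subunits of the ribosome, were reached in 15 of 40 cases (37.5%, 95% exact interval 22.7 to 54.2%). In the 3 replicates' own lists the share was 32.5%, 35.0% and 42.5%. Per 5' end it was 43.5% (27 of 62, reached by 15 peaks), against 5.88% over all (790 of 13445, reached by 677 peaks). A peak that reaches several 5' ends counts once for each in these shares. The highest were RpL17 with 2.57, 3.31 and 2.91 times the median, and RpL23A with 1.55, 3.2 and 3.49. RpL11 followed with 1.49, 2.26 and 1.85, and RpL24 with 1.13, 2.30 and 2.09. The summit of the RpL17 peak was 213 bp from the 5' end of the tRNA gene tRNA:Phe-GAA-1-2, and the part of that gene in its signal was not tested. Without peaks within 1000 bp of a Pol III gene, 14 of 40 were reached, against 6.85% of all genes.

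The 15 ribosomal protein peaks lay close to the 5' end, with median summits of -36, -9 and -28 bp (mean -24.3 ± 13.9, SD, n = 3) and single summits from -108 to 32 bp. Their median signal was 0.970, 1.51 and 1.65 times the median. The lowest of the 3 was replicate 1, and the weakest gene was RpL12 with 0.431, 0.404 and 0.881.

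Translation factor genes were reached in 8 of 31 cases (25.8%, 11.9 to 44.6%), and in 16.1%, 19.4% and 25.8% in the replicates' own lists. With peaks held by both other replicates, 6 of 31 were reached without replicate 1, 5 (16.1%) without replicate 2 and 4 (12.9%) without replicate 3, against 4.52%, 4.41% and 3.93% of all genes. After eIF6, described above, came eEF1gamma, a subunit of elongation factor 1, with 1.77, 2.97 and 2.61 times the median, and eEF1alpha1, which brings aminoacyl-tRNA to the ribosome, with 0.927, 1.52 and 1.30. The initiation factor gene eIF2A had 0.727, 0.778 and 0.895. With only the 1603 strongest optimal peaks, 3 of 31 were reached (9.68%, against 3.14% of all genes). The median summits of the 8 peaks were at -45, -53 and -51.5 bp.

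Glycolytic enzyme genes were reached in 5 of 11 cases (45.5%, 16.7 to 76.6%), and also in 45.5% in each replicate's own list. With peaks held by both other replicates, 4 of 11 (36.4%) were reached without replicate 1, 5 without replicate 2 and 4 without replicate 3. The shares of all genes were then 4.52%, 4.41% and 3.93%. Pgk, the phosphoglycerate kinase gene, had 2 of the 6 peaks. Hex-A, a hexokinase gene, had 1.85, 1.57 and 1.80 times the median. Ldh, the lactate dehydrogenase gene, had 2.05, 1.41 and 1.66. The enolase gene Eno had 3.05, 1.05 and 1.27, and the stronger Pgk peak 1.07, 1.19 and 2.01. Gapdh2, a glyceraldehyde phosphate dehydrogenase gene, had 3.85 and 3.31 in replicates 1 and 3, and no peak at the summit in replicate 2. It was the strongest in the list on pooled signal but has no mean rank.

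The glycolytic peaks lay farther from the 5' end than those at ribosomal protein genes, with medians of -207, -232 and -148.5 bp and single summits from -267 to -117 bp. The 2 ranges over the replicates did not overlap, and the difference was not tested. With the rule narrowed to summits no more than 100 bp from a 5' end, 0 of the 11 genes were reached, against 3.17% of all genes. Of the 11 genes, 81.8% have more than 1 annotated 5' end, as do 55.0% of the ribosomal protein genes and 29.6% of all, and the share of the 24 glycolytic 5' ends reached was 25%.

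Genes of the transcription machinery were reached in 3 of 24 cases (12.5%, 2.66 to 32.4%). Polr2F, a subunit common to the nuclear RNA polymerases, had 1.46, 1.95 and 2.42 times the median with its summit 1 bp downstream of the 5' end. Taf4, a TFIID subunit, had 1.24, 1.65 and 1.75, and TfIIA-S, the small TFIIA subunit, 0.708, 1.54 and 1.24. Chromatin genes were reached in 3 of 17 cases (17.6%), at Trl, the GAGA factor gene (1.23, 1.69 and 2.25), at dre4, which encodes a subunit of the histone chaperone FACT (0.821, 0.898 and 1.26), and at osa, a Brahma complex subunit (0.592, 0.604 and 0.774).

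Signalling genes were reached in 3 of 28 cases (10.7%). The peak at spi, which encodes an EGF receptor ligand, had 2.46, 2.32 and 2.81 times the median. InR, the insulin receptor gene, had 0.986, 1.45 and 1.29, and bnl, an FGF gene, 0.771, 1.22 and 0.956. Of 37 patterning genes 2 were reached (5.41%): bcd, the anterior determinant, with 1.42, 1.55 and 0.856, and tin, the heart determinant, with 1.64, 0.829 and 0.834.

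Chaperone genes were reached in 2 of 23 cases (8.70%), both small heat shock genes: Hsp27 with 2.70, 1.31 and 1.66 times the median, and Hsp26 with 0.997, 1.62 and 1.22. Cell cycle genes were reached in 3 of 31 cases (9.68%), namely CycB3, polo and Orc1. Cytoskeletal genes were reached in 3 of 20 cases (15.0%), at Moe, Tm1 and sqh, and RNA-binding protein genes in 3 of 20 (15.0%), at msi, mub and pum. The peak at msi, the Musashi gene, had 2.57 times the median in replicate 1 but 0.510 and 0.814 in replicates 2 and 3. It overlapped a strongest peak of all 3 replicates, and these values count only replicate peaks that contain its summit. The part of that measure in the difference was not tested.

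Oxidative phosphorylation genes were reached in 4 of 46 cases (8.70%), with ND-B22, a complex I subunit, highest at 1.75, 0.873 and 1.47 times the median. ATPsynC, RFeSP and ND-B17 had means of 0.710 ± 0.134, 0.741 ± 0.416 and 0.505 ± 0.112 (SD, n = 3). Aminoacyl-tRNA synthetase genes were reached in 1 of 12 cases (beta-PheRS), mitochondrial ribosomal protein genes in 1 of 17 (mRpL13) and proteasome genes in 1 of 26 (Rpn11). Of 6 spliceosome genes with a single 5' end 0 were reached, which allows up to 50% by the limit of 3 counts over the number of genes (the exact interval ends at 45.9%). In the own lists of replicates 2 and 3 the share was 16.7%.

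Chemoreceptor and cuticle protein genes had none, also in each replicate's own list. By the limit of 3 counts, 0 of 174 chemoreceptor genes allows a share of up to 1.72%, and 0 of 111 cuticle protein genes up to 2.70%. The exact two-sided intervals end at 2.10% and 3.27%. Cytochrome P450 and glutathione transferase genes were reached in 4 of 106 cases (3.77%, 1.04 to 9.38%), at GstE13, Cyp6u1, Cyp317a1 and GstE12. The serine protease list had 2 of 28 (7.14%), SP2353 and SP1173, which the list holds by symbol alone. With the patterns corrected after the counts were seen, it had 0 of 23, and the other lists kept the number of genes reached. Some denominators changed: the chemoreceptor list then had 0 of 154, for which the limits are higher than those given.

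**Figure D4:**
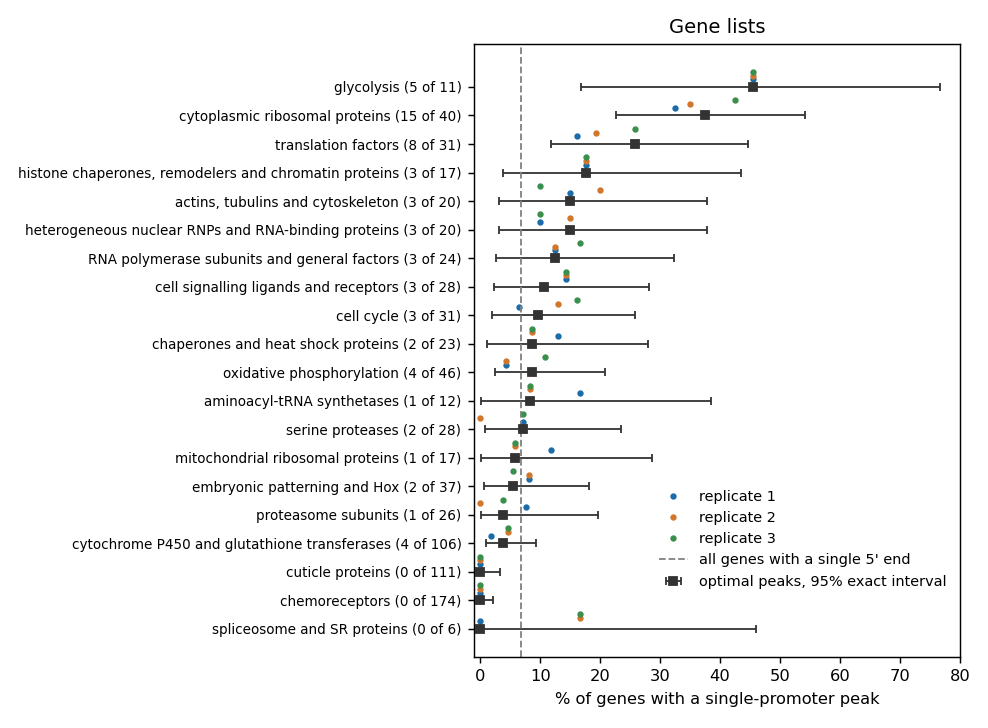
Percentage of genes with a single 5' end that had a single-promoter peak, for 20 gene lists. Squares are the optimal list with 95% exact intervals, dots are the 3 replicates' own lists, and the dashed line is the share of all such genes (6.89%). Glycolysis, cytoplasmic ribosomal protein and translation factor genes lie to the right of the line with their intervals, and chemoreceptor and cuticle protein genes lie to the left.

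Windows around the 5' end held TATAAA and TCAGT less often at promoters with a peak, and some other elements more often, than at all single promoters. Windows of 100 bp on either side of the 5' end nearest the summit were compared with those at the outermost single 5' end of all 9677 genes, so the windows of the 2 sets are not placed alike, and no test was made. A match is counted on either strand and at any place in the window. TATAAA stood in 14.3% of the 677 windows (95% exact interval 11.8 to 17.2%) against 29.0% of all, and the initiator TCAGT in 38.7% against 46.5%. With windows of 100 bp on either side of the summit instead, TATAAA stood in 25.8% of the 677 (22.6 to 29.3%) and TCAGT in 32.5%. Around the 5' end, the E-box CAGCTG stood in 20.8% (17.8 to 24.1%) against 11.8%, and the GAGA repeat GAGAGAG in 10.9% (8.68 to 13.5%) against 4.42%.

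The DRE, TATCGATA, stood in 6.94% of windows against 4.68% of all, and its core ATCGAT, which every DRE holds, in 16.4% against 13.5%. Among the 305 single-promoter peaks that are in the 1603 strongest optimal peaks, both shares were close to those of all promoters. They were 4.59% (2.53 to 7.58%) and 13.1% (9.54 to 17.4%), with the shares of all promoters inside the intervals. The core of Motif 1, GGTCACAC, stood in 6.65% against 4.04%. Of the elements of Pol III genes, the B box, GTTCGANNC, stood in 4.28% (2.89 to 6.09%) against 2.56%, and the core of the proximal sequence element of snRNA genes, AATTCCCAA, in 0.443% against 0.269%. Windows around the 5' end were not searched at Pol III genes, so these shares have no like value there. Shorter windows, of 50 bp on either side of the summit, gave 4.24% and 2.12% for the 236 peaks at Pol III genes. How often such a summit window takes in the place of either element was not tested. In summit windows of that length the single-promoter peaks had 1.03% (0.417 to 2.12%) and 0.443%. Fixed windows of that length, centred 100 bp upstream of all single 5' ends, had 0.920% and 0.114%.

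**Figure D5:**
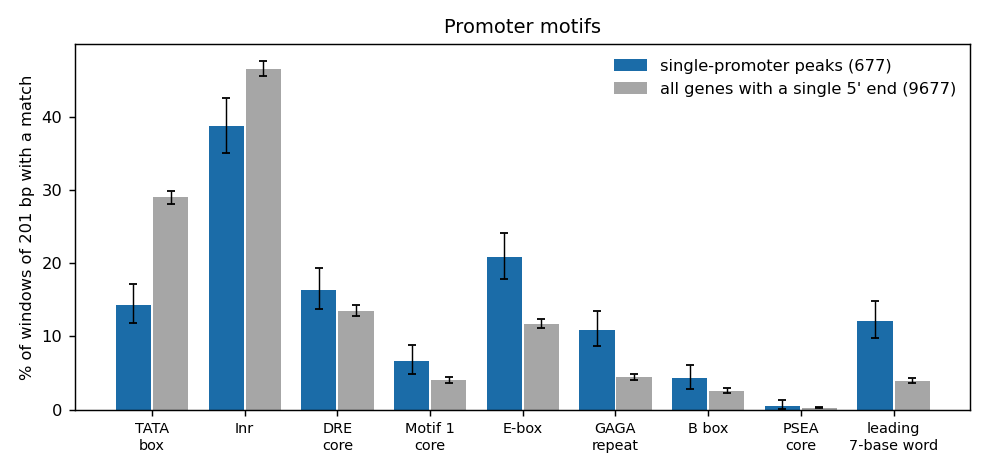
Percentage of windows of 201 bp around the 5' end that hold each motif on either strand, with 95% exact intervals, for the 677 single-promoter peaks (blue) and all 9677 genes with a single 5' end (grey). TATA box matches stand at 14.3% against 29.0% and E-box matches at 20.8% against 11.8%. The word of 7 bases at the right was picked from these same peaks.

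Windows of 50 bp on either side of the summit, chosen after the summit position was seen, were set beside windows of that length centred 100 bp upstream of all single 5' ends. There TATAAA stood in 14.6% against 15.3%. The initiator stood in 17.6% against 16.2% and the GAGA repeat in 2.95% against 4.51%, so the direction of both differed from that around the 5' end. The DRE core stood in 10.04% against 6.27%, the Motif 1 core in 3.99% against 0.672%, and CAGCTG in 8.71% against 5.02%. The median GC content of the windows was 39.6% against 38.6%.

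Words of 7 bases were then ranked by the difference between these windows, which makes the leading words a description of these peaks. First was AGTGTTG, in 7.83% of the windows against 1.58%. It was followed by AACACTG, in 6.79% against 1.15%, and ACACTGC, in 6.06% against 1.19%. At divergent summits, which took no part in the ranking, AGTGTTG stood in 7.92%, AACACTG in 6.73% and ACACTGC in 3.56%. The DRE core, the Motif 1 core or AGTGTTG stood in 132 of the 677 windows (19.5%), against 8.32% of all. For the words too, the windows of the 2 sets are not placed alike.

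These shares were not alike across the groups by pooled signal, and no test was made. The summit windows were not placed alike either, as the median summit was on average at -137 bp in group 1 and -72.3 bp in group 4. The part of that position in the shares was not tested. In group 1 the DRE core stood in 4.12% of summit windows (1.67 to 8.30%), CAGCTG in 3.53% and TATAAA in 21.8%. In group 4 the shares were 13.6% (8.83 to 19.7%), 14.8% and 11.2%. Of the stretches printed above, those of CG31145, CG18549, CG13921 and brwl hold TATAAA in the 60 bases before the summit. That of RpS10b, also a peak of group 1, holds 2 copies of the DRE core there.

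Peaks just inside and just outside the bounds of the rule are given as a description. The closest above the divergent distance were Eno and Nrx-1, with a neighbour 1015 and 1024 bp upstream, and the closest below were hts and Smg5, at 999 and 984 bp. Eno had 3.05, 1.05 and 1.27 times the median and Nrx-1 1.09, 1.47 and 1.33, while hts had 0.357, 1.06 and 0.531 and Smg5 0.864, 0.414 and 3.00. At the window, 76 single-promoter peaks reached only its outer 50 bp, and 67 other peaks ended up to 50 bp beyond it. Their median signals were 1.51, 1.29 and 1.17, and 1.47, 1.30 and 1.29 times the median. Below the optimal list, 2835 further peaks of the pooled relaxed list lay at single promoters, and they reached 2272 more genes, or 23.5% of those with a single 5' end.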

How the data were processed

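Per the labels, ChIP-seq with an antibody to GFP was done on 3 biological replicates of embryos (0 to 24 h) that express Bdp1 with a C-terminal GFP, with chromatin sheared to 200 to 800 bp. The authors deposited narrowPeak lists on dm6 and dm3. The 5 dm6 lists were used: a relaxed list of 30000 peaks per replicate, another from the pool of all replicates, and the optimal list of 3206 peaks that passed the irreproducible discovery rate (IDR) procedure. The peak signal (signalValue) is used as the authors deposited it. Neither the labels nor the file headers name the aligner, the peak caller or the cut-off of that procedure. The scale of the signal between lists is not stated, so each replicate was divided by its median over the optimal peaks. A peak's value in a replicate is the highest signal among relaxed peaks that contain the optimal summit. With no read totals, depth is unknown, and intervals (Clopper-Pearson, 95%) cover counting error over peaks or genes only.

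Gene ends came from Ensembl release 115 (BDGP 6.54) and sequence from the RefSeq genome of Release 6, which is dm6; every peak fell within its chromosome lengths. Coordinates are 1-based. Overlap means at least 1 bp. Tests were exact two-sided sign-flip permutations over the 3 replicates. Labels call the samples biological replicates and do not say how embryos were pooled. Classification was tested on simulated peaks, with a check that did not ask for every single-promoter peak to return. Python 3.11.15, numpy 2.4.6, pandas 2.3.3, scipy 1.17.1 and matplotlib 3.10.9 were used.

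The members, lists and motifs were chosen with earlier results of these data known. Genes named are the 12 peaks that ranked highest on average, up to 4 per list by the same order, the middle 3 and lowest 3 of the pooled ranking, and 3 that reach the most genes; Orc1 and genes given as the whole of a small count are named beyond their rank, as are Gapdh2, RpL12, Moe, Ptpmeg2 and the genes at the bounds of the rule, which were chosen after their values were seen. The rule also asked for the 3 widest peaks, but 597 share the largest width, so none is named. Stretches are printed for 5 of the 12 strongest peaks, and 1 more that the rule chose is not reported here. Lists are symbol patterns. Some took in unrelated genes (SP and SPH symbols, ppk, Cyp1, Cyp40, fz, bic, Srp54k); the corrected patterns were written after the counts were seen and are an alternative. Words of 6, 7 and 8 bases were looked at, and words of 7 bases are given. The summit windows were also chosen after values were seen.

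Alternatives were the peak set, each replicate left out, the divergent distance and partner, the window, the scale of the signal, the summit used and the motif window.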

Additional observations from a re-analysis of the deposited data

How the results depend on the processing

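Across 23 results, 182 alternative values were computed. Of these, 134 were counted as unchanged, 39 moved further and 9 changed sign. To be unchanged, a count had to stay within 1.5 times of the value reported. A share had to stay within its spread between replicates or its interval. Signal differences and summit positions were judged by direction only, so an unchanged one may differ in size. The number of single-promoter peaks was 305 among the 1603 strongest optimal peaks and 303 with the summit within 100 bp of a 5' end. It was 380 to 438 when a replicate was left out, since a peak then had to be held by both others. The share of genes reached was 3.14% among the 1603 strongest, 5.81% for peaks found in at least 2 of 3 replicates, 3.17% with the summit within 100 bp, 7.5% with a divergent distance of 500 bp, 9.04% with a window of 500 bp and 5.88% per 5' end, and 3.93 to 4.52% with a replicate left out. Support by all 3 replicates was 90.5% among the 1603 strongest, 60.3% for peaks in at least 2 replicates and 45.2% with the summit within 100 bp. The log2 signal difference from all other peaks, which does not pass a test, changed sign among the 1603 strongest (0.027), with a divergent distance of 2000 bp (0.015) and with a window of 500 bp (0.029), and ranged from -0.068 to 0.0051 with a replicate left out; the cause was not tested. The summit difference from divergent promoters was 1.67 bp with the summit within 100 bp, a setting that by construction removes far summits. With a window of 500 bp, which by construction admits far summits, that difference was -72.3 bp, against -38.8 bp as reported. The share of windows minus that of all promoters became -0.091 points for the DRE and -0.41 for its core among the 1603 strongest, and, in the windows at the summit, 1.35 for the initiator and -1.55 for the GAGA repeat. The number of lists above all genes stayed between 9 and 13, and was 12 with the corrected patterns. Alternatives for the windows at the summit, the 7-base words, the peaks near Pol III genes, the unit of 5' ends and the corrected patterns were chosen after seeing the data. No paired analysis was possible because there is 1 group, so no groups share replicate numbers; differences between peak classes were taken within each replicate. With 3 replicates no test could pass 0.05.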
